A study of Mus musculus with 6 samples.

Results

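The stress keratins Krt6a, Krt6b, Krt16 and Krt17 were followed in the ear skin of 3-month-old mice. They were taken by gene name from the deposited table, which gave 4 genes of the 54532 listed. RNA was sequenced from 3 libraries of Ufl1 cKO ears (genotype Ufl1f/f KRT14Cre/+) and 3 libraries of control ears (genotype given as either Ufl1f/+ or Ufl1f/f, with no Cre listed). Both groups thus carry at least 1 floxed Ufl1 allele, and the cKO group alone is labelled with Cre, so an effect of the Cre transgene and one of the loss of Ufl1 cannot be told apart. The promoter of keratin 14 drives the Cre. It is on in basal keratinocytes and their epithelial descendants, and fibroblasts, immune cells and other dermal cells in whole ear skin lie outside it. Ufl1 was not measured by cell type. The labels do not say that each library came from a separate animal, and p-values measure the spread between these libraries, which may be technical. Whole ear skin was used, and fewer cells of a type and less RNA per cell cannot be told apart.

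Keratins form the intermediate filaments of epithelial cells as obligate pairs of an acidic type I and a basic type II chain. In resting skin the epidermis between the hairs is built on Krt5 and Krt14 in its basal layer and on Krt1 and Krt10 above it, while Krt6a, Krt6b (type II), Krt16 and Krt17 (type I) are mainly found in the hair follicle, nail and other appendages. After wounding, in psoriasis and in other states with activated keratinocytes, the same 4 genes are transcribed in the interfollicular epidermis, for which they are called stress or wound keratins. Krt17 is also a steady product of the outer root sheath and of other parts of the follicle.

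The type II genes Krt6b (ENSMUSG00000023041, chromosome 15, 101676023 to 101680287, minus strand, mm10) and Krt6a (ENSMUSG00000058354, chromosome 15, 101689910 to 101694307, minus strand) are neighbours. The type I genes Krt16 (ENSMUSG00000053797, chromosome 11, 100246091 to 100248902, minus strand) and Krt17 (ENSMUSG00000035557, chromosome 11, 100256217 to 100261029, minus strand) are neighbours as well. In the GENCODE annotation of mm10 the coding sequence spans 9 exons in each Krt6 gene and 8 exons in Krt16 and in Krt17. Krt6a and Krt6b were identical at 1625 of 1662 aligned coding bases (97.8%), with 1 unbroken identical stretch of 280 bases. Krt16 and Krt17 were identical at 78.2% of aligned coding bases, Krt16 and Krt14 at 86.5%, and Krt6a and Krt5 at 81.4%. The stretch of 90 coding bases in which Krt6a and Krt6b differ most is shown because reads over it can be assigned to 1 of the copies most readily. It holds 12 of the 37 differing coding bases, printed in capitals, and lies at coding bases 787 to 876 of both genes, at chr15:101692484-101692573 in Krt6a and chr15:101678303-101678392 in Krt6b, both on the minus strand of mm10.
Krt6a: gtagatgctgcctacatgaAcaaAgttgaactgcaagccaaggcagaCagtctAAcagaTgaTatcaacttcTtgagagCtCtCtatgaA
Krt6b: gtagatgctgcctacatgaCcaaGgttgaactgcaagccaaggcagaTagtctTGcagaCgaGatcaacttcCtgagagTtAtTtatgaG

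In contrast, coding bases 34 to 123 near the start of the reading frame are the same in both copies, so a read inside them fits either gene. They lie at chr15:101694126-101694215 in Krt6a and chr15:101680101-101680190 in Krt6b.
Krt6a and Krt6b: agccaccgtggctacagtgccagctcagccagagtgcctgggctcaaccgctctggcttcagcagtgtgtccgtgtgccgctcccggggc

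Of the windows of 100 bases along the Krt6a transcript, 29.5% also occur in the Krt6b transcript, and of those of 150 bases 18.5%. For Krt16 against Krt17 this was 0.0% at either length, and 3.14% of the 100-base windows of Krt16 occur in Krt14. The sources used here give neither the read length nor the handling of reads that fit several genes, and the split between Krt6a and Krt6b is uncertain. The deposited counts were not evenly split. Control 2 had 668 reads on Krt6a and 1 read on Krt6b, so Krt6b held 0.149% of both (exact Clopper-Pearson 95% interval 0.00378% to 0.83%, counting error only).

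The total count ranged from 17256339 to 20776539 per library. Transcripts that define skin were abundant, with Krt10 at a mean of 2318 FPKM (the authors' fragment count scaled by gene length and library size) in the cKO and 1972 FPKM in the controls, and Krt14 at 1794 FPKM and 1429 FPKM. The targeted gene Ufl1 had 34.9, 35.6 and 38.8 CPM (read counts after TMM scaling to library size) in cKO 1 to 3, against 57.9, 47.0 and 46.1 CPM in controls 1 to 3. The groups did not overlap, with the cKO lower (log2 fold change -0.47, SE 0.14; unadjusted p = 0.00985, adjusted p = 0.778 in the edgeR quasi-likelihood test). Libraries of 1 group differed in the level of epidermal keratin transcripts. The sum of Krt5 and Krt14 was 2693, 2222 and 2971 FPKM in cKO 1 to 3, against 1083, 4173 and 1746 FPKM in controls 1 to 3. Control 1 had the lowest and control 2 the highest sum, and the mitochondrial share of the counts was 2.49% to 2.71% in the cKO libraries, against 4.59% in control 1 and 2.28% to 2.97% in controls 2 and 3.

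All 4 stress keratins were higher in every cKO library than in every control library, by an amount that differed widely between the genes and between the ears. Averages of the fit were 45.3-fold for Krt6b, 18.8-fold for Krt16, 5.13-fold for Krt6a and 1.83-fold for Krt17. Of the 17318 genes tested, 5.73% lay higher in the cKO without overlap, the background for the 4 of 4 members that did. None of the 4 passed an adjusted p of 0.05 in the edgeR quasi-likelihood test over all genes, where 0.0115% of genes (2 genes) were called higher. At an unadjusted p under 0.05, 4 of 4 members were higher, next to 3.38% of genes tested. In DESeq2, 1 of 4 (Krt16) passed, next to 0.387% of genes. The members were picked with earlier results of these data known, so these counts describe them and no more.

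**Figure D1:**
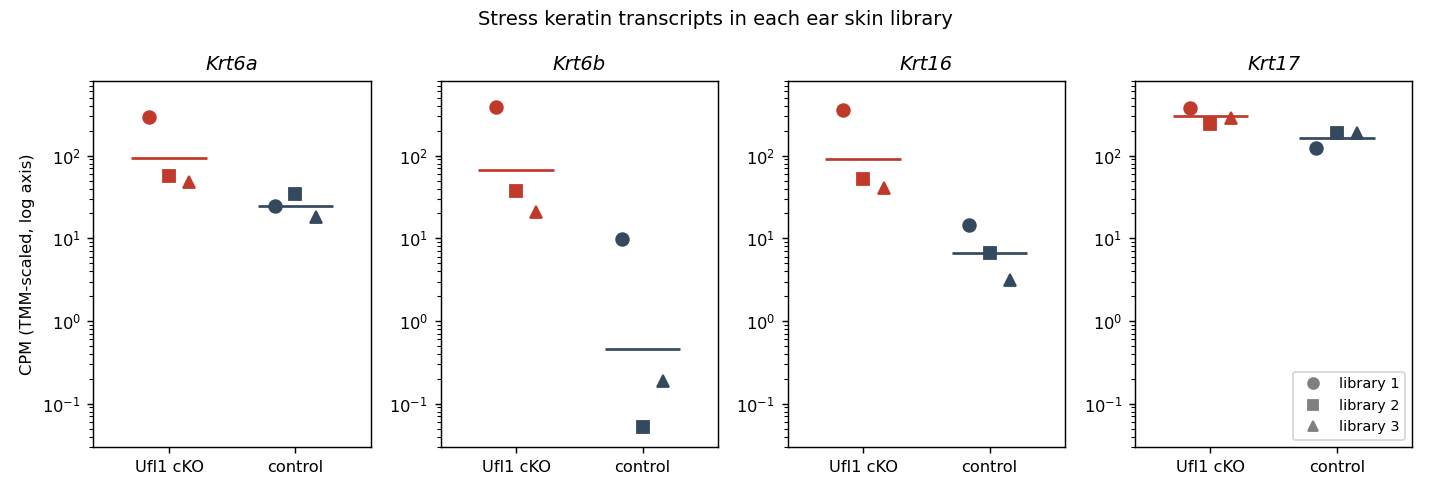
TMM-scaled CPM (log axis) of the 4 stress keratins in each library, with 3 Ufl1 cKO libraries at the left and 3 control libraries at the right of each panel; lines are geometric means. cKO 1 is the highest library in each panel (293 to 384 CPM), and Krt6b in controls 2 and 3 is near 0.

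Krt6b, a type II keratin and the copy with the lowest control level, was counted 6892, 681 and 403 times in cKO 1 to 3, against 166, 1 and 4 times in controls 1 to 3. On the CPM scale this was 384, 37.8 and 21.1 in cKO 1 to 3, against 9.90, 0.0516 and 0.189 in controls 1 to 3. The groups did not overlap, and the lowest cKO library stood 2.13-fold above control 1, the highest control. In the edgeR test this amounted to 5.50 on the log2 scale (SE 1.68; unadjusted p = 0.0118, adjusted p = 0.811). Krt6b passed the filter on low counts through the cKO libraries and control 1. Its fold change was the largest of the 17318 genes tested, and the 1 and 4 reads in controls 2 and 3 make this size unsteady. Leaving out control 1 gave 10.15 on the log2 scale (SE 2.37), and leaving out cKO 1 gave 3.15 (SE 1.40).

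Krt6a, the type II copy with the higher level in the controls, was at 293, 56.0 and 48.7 CPM in cKO 1 to 3, against 24.8, 34.4 and 18.1 CPM in controls 1 to 3. The lowest cKO library was 1.41-fold above the highest control, control 2. On the log2 scale the difference was 2.36 (SE 0.68; unadjusted p = 0.00857, adjusted p = 0.763 in edgeR). The cKO libraries spanned a 6.01-fold range and the controls a 1.90-fold range. Leaving out cKO 1 gave 1.02 (SE 0.27), a 2.03-fold difference. The table also lists an antisense gene over Krt6a, Gm49428, with 8, 0 and 0 reads in cKO 1 to 3, against 1, 0 and 3 reads in controls 1 to 3. The sources used here do not give whether the counting used strand.

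Krt16, the type I partner of Krt6 in wounds, had 358, 51.8 and 40.4 CPM in cKO 1 to 3, against 14.3, 6.70 and 3.17 CPM in controls 1 to 3. cKO 1 again stood apart, and cKO 3, the lowest of the group, was 2.82-fold above control 1, the highest control. Krt16 differed by 4.23 on the log2 scale (SE 0.97; unadjusted p = 0.00235, adjusted p = 0.559 in edgeR). DESeq2 on the same counts gave 4.21 (SE 1.09) and called it, with an adjusted p of 0.0267. For Krt16 the authors' deposited table gives 4.22 on the log2 scale, with an adjusted p of 0.0329. There 0.204% of the 28469 genes with a p-value were called higher, and 1 of the 4 members (adjusted p of 0.0787 for Krt17, 0.399 for Krt6a and 0.416 for Krt6b). Both tools used the same libraries and are no independent support for each other. Without cKO 1 the log2 fold change of Krt16 was 2.53 in edgeR (SE 0.54), a 5.76-fold difference, and 2.52 in DESeq2 with an adjusted p of 0.00332. Without control 2 or control 3 Krt16 was not called by DESeq2 (adjusted p = 0.150 and adjusted p = 0.297).

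Krt17, the type I keratin of the outer root sheath that is also induced by wounding, had the smallest and the most even difference. It was at 382, 240 and 288 CPM in cKO 1 to 3, against 122, 187 and 188 CPM in controls 1 to 3, with group means of 304 ± 72.0 CPM and 166 ± 37.4 CPM (SD, n = 3 each). The groups did not overlap, and cKO 2 was 1.28-fold above control 3. This was 0.87 on the log2 scale (SE 0.23; unadjusted p = 0.00563, adjusted p = 0.650 in edgeR; adjusted p = 0.0779 in DESeq2). Within each group the highest library was 1.59-fold (cKO) and 1.53-fold (control) above the lowest. Without cKO 1 the log2 fold change was 0.68, and without control 1 it was 0.69. DESeq2 called Krt17 without cKO 2 (adjusted p = 0.0367) or without control 2 (adjusted p = 0.0379).

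The libraries did not rank alike for the 4 genes. cKO 1 was the highest library for each of them, and cKO 2 was above cKO 3 for Krt6a, Krt6b and Krt16 and below it for Krt17. Among the controls, control 1 was the highest for Krt6b and Krt16, between the others for Krt6a and the lowest for Krt17. For a single gene, an exact two-sided permutation test on log2 CPM gave p = 0.1 for each member, the smallest that 3 libraries against 3 allow.

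**Figure D2:**
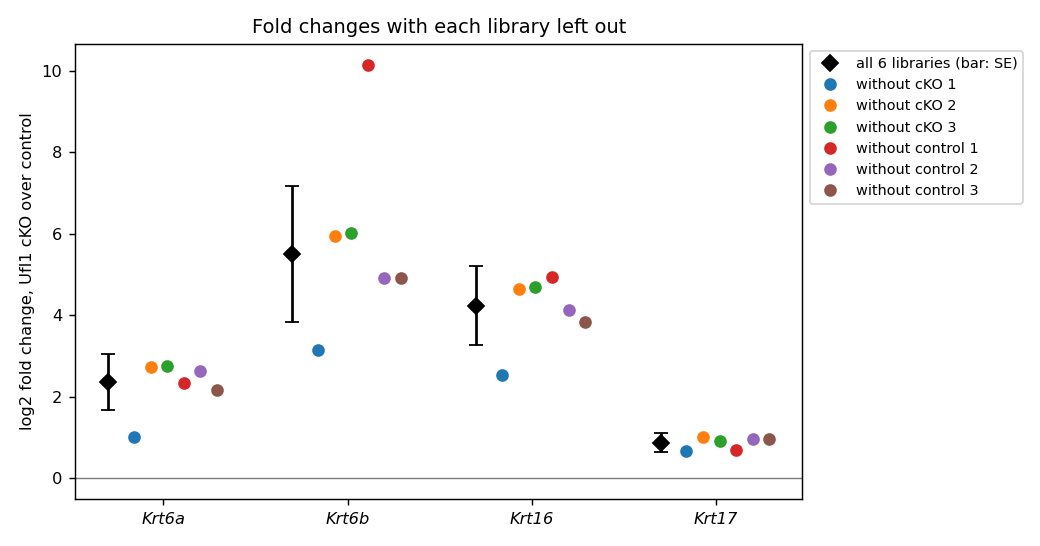
Log2 fold change (Ufl1 cKO over control) of each stress keratin with all 6 libraries (diamond, bar is the SE of the edgeR fit) and with each library left out in turn (circles). The value stays above 0 in each case; without cKO 1 it is the lowest of each gene (1.02 for Krt6a, 3.15 for Krt6b, 2.53 for Krt16 and 0.68 for Krt17), and without control 1 Krt6b reaches 10.15.

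Levels of different genes were compared per length, in FPKM. In each control library the order of levels was Krt17, Krt6a, Krt16 and Krt6b. Control 1 had 78.6, 10.2, 9.10 and 4.41 FPKM of these, control 2 had 119, 14.0, 4.21 and 0.0227 FPKM, and control 3 had 120, 7.46, 2.01 and 0.0841 FPKM. In each cKO library Krt17 was first and Krt16 second. Krt16 was at 227, 32.9 and 25.7 FPKM in cKO 1 to 3, against Krt6a at 120, 23.0 and 20.1 FPKM in the same libraries. In the deposited FPKM Krt16 thus stood above Krt6a in 3 of 3 cKO libraries and below it in 3 of 3 control libraries. Of the 100-base windows of Krt6a, 29.5% occur in Krt6b. Reads that fit both copies may have been dropped, which would lower Krt6a. Its order against Krt16 is therefore uncertain, most of all in cKO 2 and cKO 3. In cKO 1 Krt6b, at 170 FPKM, also stood above Krt6a, while in cKO 2 and cKO 3 it was below, at 16.8 and 9.42 FPKM. Averaged over the cKO libraries, Krt16 was at 95.1 ± 114 FPKM, Krt6b at 65.4 ± 90.7 FPKM and Krt6a at 54.3 ± 56.7 FPKM (SD, n = 3 each). cKO 1 sets these spreads. The genes share the same libraries, so the SD does not measure how they differ from each other within a library.

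The balance within each pair of neighbouring genes was examined in FPKM. Krt6a made up 41.3%, 57.8% and 68.1% of the Krt6 level in cKO 1 to 3, against 69.8%, 99.8% and 98.9% in controls 1 to 3. The groups did not overlap (difference of means -33.8 percentage points, exact two-sided permutation p = 0.1, the smallest possible), though cKO 3 and control 1 were close. The ratio of Krt16 to Krt17 was 0.930, 0.214 and 0.139 in cKO 1 to 3, against 0.116, 0.0355 and 0.0167 in controls 1 to 3. It was higher by 2.88 on the log2 scale (exact permutation p = 0.1), with cKO 3 just above control 1. The ratio of type II (Krt6a and Krt6b) to type I members (Krt16 and Krt17) was 0.616, 0.213 and 0.140 in cKO 1 to 3, against 0.167, 0.114 and 0.0617 in controls 1 to 3. Here control 1 lay above cKO 3, and the difference of 1.32 on the log2 scale had an exact permutation p of 0.2. In each library the type I members summed to more than the type II members, with Krt17 the largest of the 4.

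**Figure D3:**
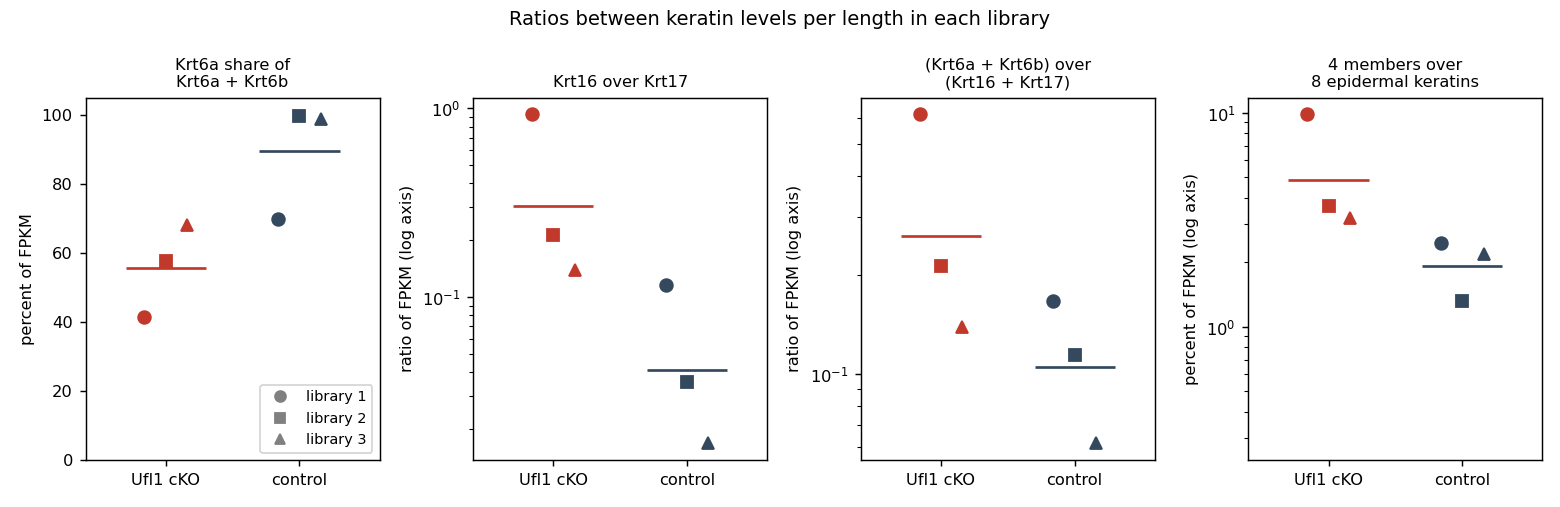
Ratios between FPKM levels in each of 3 Ufl1 cKO and 3 control libraries, with lines at the mean (first panel, linear axis from 0) or geometric mean (other panels, log axis). The first, second and last panels show groups that do not overlap, and the ratio of type II to type I members overlaps between cKO 3 and control 1.

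Because the sum of Krt5 and Krt14 differed between libraries, the members were also set against keratins of the epidermis itself. The 4 members together amounted to 9.80%, 3.66% and 3.21% of the summed FPKM of 8 epidermal keratins (Krt5, Krt14, Krt15, Krt1, Krt10, Krt2, Krt77 and Krt80) in cKO 1 to 3, against 2.47%, 1.32% and 2.19% in controls 1 to 3. The groups did not overlap (exact permutation p = 0.1). Per 1000 FPKM of Krt5 and Krt14, Krt16 was at 84.1, 14.8 and 8.66 in cKO 1 to 3, against 8.41, 1.01 and 1.15 in controls 1 to 3, so control 1 came close to cKO 3. On this scale the other members overlapped between the groups. Krt17 was at 90.5, 69.3 and 62.4 in cKO 1 to 3, against 72.6, 28.4 and 68.9 in controls 1 to 3 (exact permutation p = 0.5). For Krt6a, control 1 at 9.43 lay above cKO 3 at 6.76, and for Krt6b control 1 at 4.07 lay above cKO 3 at 3.17 (exact permutation p = 0.2 each). Before division Krt6a was at 10.2 FPKM in control 1 and 20.1 FPKM in cKO 3, and Krt6b at 4.41 and 9.42 FPKM. Krt17 did not overlap before division, with its lowest cKO library, cKO 2, at 154 FPKM and its highest control, control 3, at 120 FPKM. The divisor was 1083 FPKM in control 1 and 2971 FPKM in cKO 3. Why the sum of Krt5 and Krt14 was low in control 1 was not tested.

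Set among the keratin family, Krt6b, Krt16 and Krt6a had the 3 largest fold changes of 43 keratin genes tested, and Krt17 was number 8. Of the 39 others, 25 had a positive and 14 a negative log2 fold change, with a median of 0.23 (-0.17 without cKO 1). For all genes tested the median was -0.01, and 47.8% were positive. In edgeR 0 of the 39 were called, next to 0.0173% of all genes called in either direction. At an unadjusted p under 0.05, 1 was higher (Krt23) and 1 was lower (Krt15), next to 3.38% of all genes higher and 1.95% lower. DESeq2 called Krt15 as lower, next to 0.139% of all genes. Without overlap, 1 of the 39 was higher (Krt23) and 3 were lower (Krt15, Krt19 and Krt222), next to 5.73% of all genes higher and 4.81% lower. Krt15, a type I keratin that marks stem cells of the follicle bulge and basal layer, had 213, 247 and 374 CPM in cKO 1 to 3, against 445, 1375 and 730 CPM in controls 1 to 3 (log2 fold change -1.61, SE 0.41; adjusted p = 0.650 in edgeR and 0.0103 in DESeq2). Krt23 was at 107, 85.2 and 73.4 CPM in cKO 1 to 3, against 55.7, 71.8 and 62.5 CPM in controls 1 to 3. By mean level Krt16 was number 9 of the 43 in the cKO and number 18 in the controls, and Krt6b number 11 in the cKO and number 29 in the controls.

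**Figure D4:**
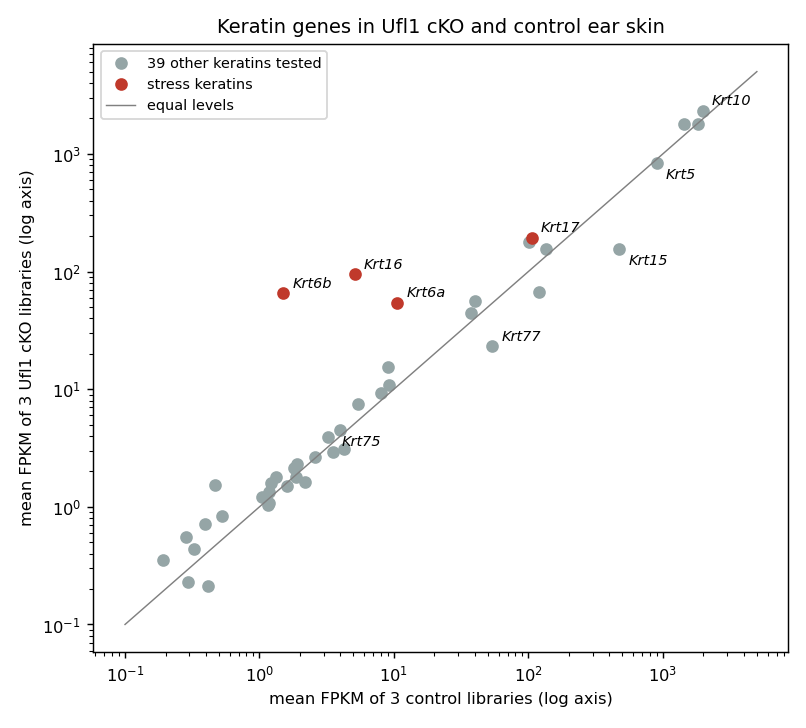
Mean FPKM of 43 keratin genes in 3 Ufl1 cKO libraries (vertical, log axis) against 3 control libraries (horizontal, log axis), with a line of equal levels. Krt6b (65.4 in the cKO and 1.51 in the controls), Krt16 (95.1 and 5.11) and Krt6a (54.3 and 10.6) lie farthest above the line, and Krt15 (156 and 476) lies below it.

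Genes that act on stress keratins in other settings were examined next. Ligands of the receptor Egfr drive keratinocyte activation. Of Egfr and its 7 ligands 5 were positive, next to 47.8% of all genes tested. Their median log2 fold change was 0.28 (0.07 without cKO 1). Epgn, the ligand epigen, was at 9.03, 3.11 and 4.66 CPM in cKO 1 to 3, against 2.74, 1.65 and 0.473 CPM in controls 1 to 3 (1.80, SE 0.62; adjusted p = 0.857). Areg, amphiregulin, had a log2 fold change of 1.79 (SE 0.74) with overlapping groups, and it was 0.78 without cKO 1. Btc, betacellulin, had one of 0.93 (SE 0.43). Egfr itself was at -0.03.

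Cytokines that induce these keratins were mostly near the limit of detection. Of 15 cytokine and receptor genes, 9 were tested, and Il6, Il17a, Il17f, Il22, Il23a and Ifng did not pass the filter on low counts. The 9 had a median of 0.32 (0.17 without control 1), with 7 positive, next to 47.8% of all genes tested. Osm, the cytokine oncostatin M, was at 3.46, 0.666 and 2.57 CPM in cKO 1 to 3, against 0.656, 0.361 and 0.662 CPM in controls 1 to 3, so cKO 2 lay just above control 3 (1.98, SE 0.62; adjusted p = 0.811). Its receptor gene Osmr had a log2 fold change of 0.37 (SE 0.15). Il1b was at 63.3, 15.5 and 28.8 CPM in cKO 1 to 3, against 23.4, 0.361 and 3.21 CPM in controls 1 to 3, so that control 1 lay above cKO 2.

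Transcription factor genes linked to the stress keratins showed small differences. The 8 AP-1 genes had a median of 0.04 (-0.17 without control 3), with Fosl1 at -0.37 (SE 0.32), Junb at 0.20 (SE 0.26; -0.01 without control 1) and Jun at 0.10 (SE 0.15; -0.01 without control 3). The 14 other regulators had a median of -0.08 (0.08 without control 2), with 5 positive. Among them Socs3, a feedback inhibitor of STAT3 signalling, was at 0.48 (SE 0.33), Gli1, a mediator of hedgehog signals, at -0.47 (SE 0.33), and Nfkbiz, a co-regulator of the interleukin 17 response, at 0.32 (SE 0.26). In these 4 lists edgeR and DESeq2 called 0 members. At an unadjusted p under 0.05, Epgn, Areg, Osm and Osmr were higher and 0 were lower of the 39 genes tested in these lists, next to 3.38% of all genes higher and 1.95% lower.

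Partner genes of keratin filaments were compared next. The median over the 8 keratins of the interfollicular epidermis was 0.10 (-0.19 without control 1, 0.42 without control 2), with 4 positive. Krt1, the type II keratin of suprabasal cells, was at 1369, 437 and 596 CPM in cKO 1 to 3, against 383, 619 and 350 CPM in controls 1 to 3, so the groups overlapped (0.83, SE 0.43; 0.20 without cKO 1). Krt77 was at -1.20 (SE 0.80; -0.43 without control 1). Of 13 genes for desmosomes and filament linkers, which anchor keratins at cell contacts, 12 were positive, next to 47.8% of all genes tested. Their median was 0.16 (0.05 without control 1, 0.46 without control 2). The desmosomal cadherin Dsc2 was at 35.4, 18.7 and 25.0 CPM in cKO 1 to 3, against 12.7, 15.2 and 13.0 CPM in controls 1 to 3 (0.95, SE 0.24; unadjusted p = 0.00434, adjusted p = 0.650 in edgeR). Dsc3 was at 0.39 (SE 0.18) and Pkp2, a plakophilin of the desmosomal plaque, at 0.48 (SE 0.25). In both lists edgeR called 0 members, next to 0.0173% of all genes. At an unadjusted p under 0.05 Dsc2 was higher and Krt15 lower, next to 3.38% of all genes higher and 1.95% lower. DESeq2 called 1 as lower, Krt15, next to 0.139% of all genes.

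Wound and activation genes that accompany stress keratins had the largest median of the lists on keratinocytes. Of 20 such genes, 19 were tested (Sprr3 was at 0 in each library), and 18 had a positive log2 fold change, next to 47.8% of all genes tested. The median was 1.71, and 0.43 without cKO 1. Sprr1b, a precursor protein of the cornified envelope, was at 83.9, 16.7 and 8.17 CPM in cKO 1 to 3, against 5.13, 3.51 and 2.36 CPM in controls 1 to 3 (3.31, SE 0.83; adjusted p = 0.644). Slpi, a secreted inhibitor of neutrophil elastase, was at 40.9, 10.5 and 8.54 CPM in cKO 1 to 3, against 5.25, 3.20 and 4.25 CPM in controls 1 to 3 (2.24, SE 0.60; adjusted p = 0.650). Stfa3, a stefin that inhibits cysteine proteases, was at 43.5, 3.83 and 14.2 CPM in cKO 1 to 3, against 6.86, 3.71 and 1.42 CPM in controls 1 to 3. The order of libraries was thus that of Krt16 for Sprr1b and Slpi in the cKO, with cKO 1 first, and for Stfa3 control 1 lay above cKO 2. In edgeR 0 of the 19 were called, next to 0.0173% of all genes. At an unadjusted p under 0.05, 9 were higher, next to 3.38% of all genes tested. DESeq2 called 1 as higher, Slpi, next to 0.387% of all genes.

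The 15 proliferation genes had a median of 0.13 (-0.06 without control 1, 0.46 without control 2). Rrm2, a subunit of ribonucleotide reductase, was at 0.46 (SE 0.23), Top2a, the topoisomerase of dividing cells, at 0.47 (SE 0.36) and Pcna, the replication clamp, at -0.23 (SE 0.19). In this list 13 genes were positive, next to 47.8% of all genes tested. edgeR called 0 of the 15, next to 0.0173% of all genes. DESeq2 called 0 as well, next to 0.387% of all genes higher and 0.139% lower. In edgeR 0 had an unadjusted p under 0.05, next to 3.38% of all genes higher and 1.95% lower.

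**Figure D5:**
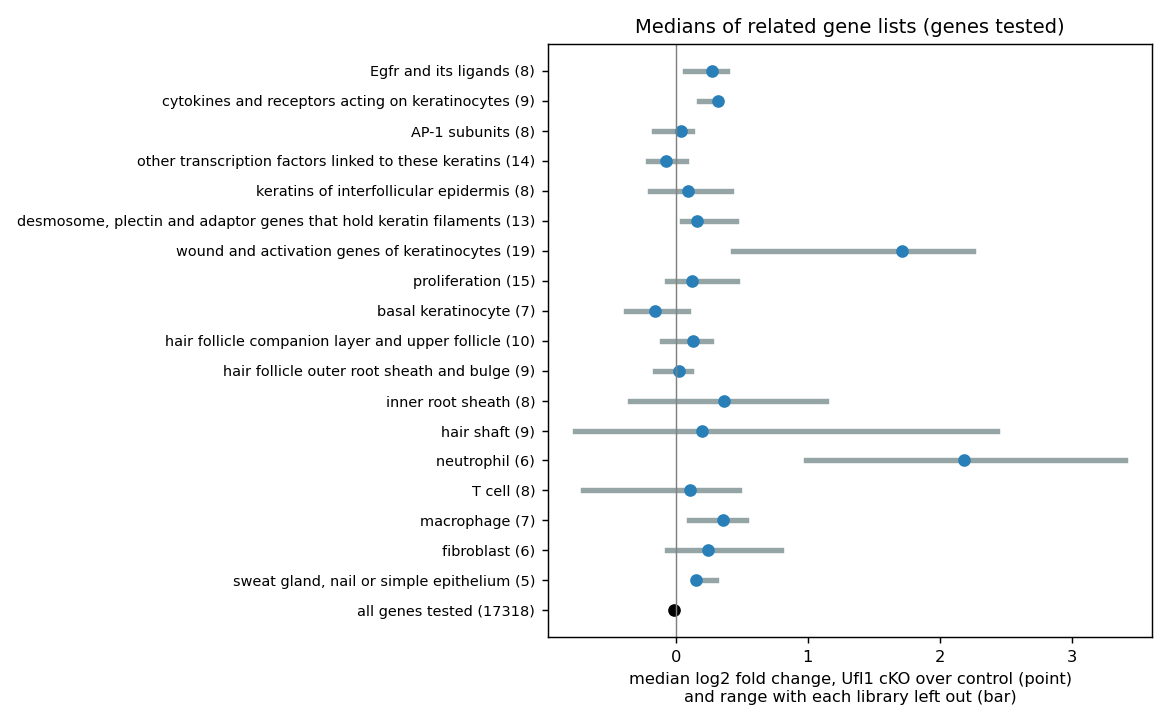
Median log2 fold change (Ufl1 cKO over control) of 18 gene lists with at least 3 genes tested (blue points, number of genes in parentheses) and of all genes tested (black point), with bars from the lowest to the highest median when each library is left out in turn. Neutrophil genes (2.18) and wound and activation genes (1.71) have the highest medians and long bars, and the hair shaft bar runs from -0.76 to 2.43.

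Markers of cells that make stress keratins without injury, and of cells that enter inflamed skin, were set beside the members. The 10 companion layer and upper follicle genes showed a median of 0.13 on the log2 scale (-0.10 without control 1, 0.27 without control 2) and summed to 1780 to 2099 CPM in the cKO, against 988 to 1801 CPM in the controls. Krt75, the type II keratin of the companion layer, was at 13.9, 4.77 and 10.4 CPM in cKO 1 to 3, against 9.84, 15.9 and 8.98 CPM in controls 1 to 3. Defb6, a defensin, was at 0.71 (SE 0.24), Plet1 at 0.45 (SE 0.17) and Cst6, a cystatin, at 0.80 (SE 0.38). Outer root sheath and bulge genes had a median of 0.03 over 9 genes (-0.16 without control 2, 0.12 without control 3) and summed to 1579 to 2100 CPM in the cKO, against 2063 to 2496 CPM in the controls. Besides Krt15, this list holds Lgr5, a receptor of follicle stem cells, which was at 9.98, 8.49 and 7.18 CPM in cKO 1 to 3, against 13.8, 15.8 and 11.4 CPM in controls 1 to 3 (-0.68, SE 0.21; adjusted p = 0.811). Postn, also made by fibroblasts, was at 0.26 (SE 0.24).

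Hair-forming cells varied within the groups. Inner root sheath genes summed to 106 to 279 CPM in the cKO, against 90.1 to 202 CPM in the controls (median of 8 genes 0.37, and -0.34 without cKO 1), with the sheath keratin Krt71 at 0.79 (SE 0.76; -0.13 without cKO 1) and Krt72 at 1.03 (SE 1.13; 0.11 without cKO 1). Hair shaft genes summed to 51.5, 8.83 and 29.0 CPM in cKO 1 to 3, against 56.6, 33.4 and 6.71 CPM in controls 1 to 3 (median of 9 genes 0.20, -0.76 without cKO 1, 2.43 without control 1). cKO 1 and control 1, the libraries with the most hair shaft transcripts, were also the highest of their groups for Krt6b and Krt16, and the part of hair content in these levels was not tested. Basal keratinocyte genes had a median of -0.16 over 7 genes (-0.37 without control 1, 0.09 without control 2) and summed to 5671 to 7299 CPM in the cKO, against 3322 to 10870 CPM in the controls. Col17a1, a collagen of hemidesmosomes, was at -0.60 (SE 0.40; -0.93 without control 1, -0.01 without control 2).

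Neutrophil genes had the highest median of the lists. Of 8 genes 6 were tested, and Ly6g and Retnlg did not pass the filter on low counts. Of these 6, 6 were positive, next to 47.8% of all genes tested. The 6 had a median of 2.18 (0.98 without cKO 1, 3.40 without control 1). They summed to 479, 59.3 and 98.3 CPM in cKO 1 to 3, against 102, 7.01 and 17.8 CPM in controls 1 to 3, so control 1 lay above cKO 2 and cKO 3, and cKO 3 above cKO 2. Cxcr2, a chemokine receptor of neutrophils, was at 20.0, 2.50 and 4.77 CPM in cKO 1 to 3, against 1.85, 1.44 and 2.17 CPM in controls 1 to 3 (2.31, SE 0.72; adjusted p = 0.811), with Csf3r at 2.05 (SE 0.79; 0.66 without cKO 1) and Mmp8 at 1.88 (SE 0.59). S100a8 and S100a9, which keratinocytes also make, are in this list and among the wound genes, and Il1b is among the cytokines. cKO 1 was the highest of its group and control 1 of its own in this list, as for Krt6b and Krt16 but, in the controls, not for Krt6a or Krt17, and the part of neutrophils in the keratin levels was not tested.

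T cell genes had a median of 0.11 over 8 genes (-0.70 without cKO 3, 0.48 without cKO 1) and summed to 35.4, 36.5 and 70.0 CPM in cKO 1 to 3, against 43.4, 51.4 and 43.8 CPM in controls 1 to 3, so they were not highest in the library with the most stress keratin. Trbc2 was at 0.78 (SE 0.20), Trdc, the constant segment of the delta chain, at -0.72 (SE 0.28), and Trac at 1.42 (SE 0.73). Macrophage genes had a median of 0.36 over 7 genes (0.10 without control 2, 0.53 without control 1), with C1qa at 0.40 (SE 0.26), Cd68 at 0.48 (SE 0.31) and Adgre1 at 0.54 (SE 0.43), and fibroblast genes one of 0.25 over 6 genes (-0.06 without control 2, 0.80 without control 1), with Col1a1 at 0.62 (SE 0.29). Keratins of simple epithelium and glands had a median of 0.16 over 5 genes (0.31 without control 3), with Krt18 at 0.40 (SE 0.50) and Krt19 at -0.41 (SE 0.28). Of 6 keratins of oral and palmoplantar epithelium 2 were tested, Krt4 at 0.38 (SE 0.32) and Krt78 at 0.20 (SE 0.28). In the 11 lists of cell type markers edgeR called 0 genes, next to 0.0173% of all genes. DESeq2 called 1, Krt15, which was lower, next to 0.139% of all genes. These lists had 2 to 10 genes tested each. At an unadjusted p under 0.05 they held Defb6, Plet1, Krt23, Trbc2, Cxcr2, Mmp8 and Csf3r as higher. Krt15, Lgr5 and Trdc were lower, next to 3.38% of all genes higher and 1.95% lower. The neutrophil list, with 6 genes tested, gave 3 of the higher genes (Cxcr2, Mmp8 and Csf3r).

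Genes with the most similar pattern over the 6 libraries were found by Pearson r of log2 CPM among 15883 other genes with a mean of at least 1 CPM, as a description with 6 points that share the same libraries. For Krt6a these were led by 6030458C11Rik (r = 0.996), Gm2223 (r = 0.996) and Nup50, a nuclear pore protein (r = 0.992), followed by Ell2 (r = 0.986) and Sdr9c7 (r = 0.985). For Krt6b they were Nlrp3, the inflammasome sensor (r = 0.993), Gm5416 (r = 0.992), Cog5 (r = 0.991), Pdcd6ip (r = 0.988) and Morf4l2 (r = 0.98). For Krt16 they were Ttc16 (r = 0.985), Mlst8 (r = 0.982), Sprr1b (r = 0.979), Mall (r = 0.977) and Slc13a3 (r = 0.976). For Krt17 they were Tmprss4, a membrane serine protease (r = 0.994), Aox4, an aldehyde oxidase (r = 0.991), Riox2 (r = 0.986), Cstb, cystatin B (r = 0.986), and Serinc2 (r = 0.986).

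Likeness in shape did not mean likeness in size. Nup50 spanned 41.6 to 55.1 CPM over the 6 libraries, while Krt6a spanned 18.1 to 293 CPM. Gm5416 was closer to Krt6b in size, with 6.19, 1.33 and 1.10 CPM in cKO 1 to 3, against 0.477, 0.0 and 0.0473 CPM in controls 1 to 3. Tmprss4 was at 75.0, 49.3 and 55.5 CPM in cKO 1 to 3, against 28.4, 40.2 and 37.4 CPM in controls 1 to 3, the same order of libraries as Krt17 except for controls 2 and 3. An r over 6 libraries rests on few points. Of the 15883 other genes compared, 34 reached 0.95 with Krt6a, 45 with Krt6b, 32 with Krt16 and 55 with Krt17. Among the members themselves r was 0.945 for Krt16 with Krt6b, 0.942 for Krt16 with Krt6a and 0.795 for Krt6a with Krt6b, and it was 0.833, 0.605 and 0.763 for Krt17 with Krt6a, Krt6b and Krt16.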

How the data were processed

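Total RNA of ear skin was made into libraries with the NEBNext Ultra kit, per the labels' protocols, and the submitters' processing notes name HISAT2, HTSeq and mm10 but no version. The authors deposited raw counts per gene and FPKM, and, per the file headers, a normalized mean count per group (a signal value), log2 fold changes and p-values, whose test is not named. Counts were filtered with filterByExpr, scaled by TMM and tested in edgeR 4.0.16 (glmQLFTest, robust, no covariates, R 4.3.3) over 17318 genes, with Benjamini-Hochberg adjustment at 0.05. The SE is the log2 fold change over the root of F. Ratios used FPKM and exact two-sided permutation tests. Log2 CPM used a prior count of 2. Coding sequences came from GENCODE transcripts (mm10), aligned with Biopython 1.88. Alternatives were RLE and upper-quartile scaling, other filters, the replicate number as a block, each library left out, DESeq2 1.42.0 and limma 3.58.1 (voom, and trend on log2 FPKM), and edgeR and DESeq2 were tested on simulated counts. The members and the 19 gene lists were chosen with earlier results of these data known. By rule the text names up to 3 genes a list, those of smallest p, and the 5 genes most like each member. Other genes named, such as Egfr and Krt75, were chosen after their values were seen. Krt85 of the hair shaft list was not analysed here.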

Additional observations from a re-analysis of the deposited data

How the results depend on the processing

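All 4 members kept a positive log2 fold change in each of the 22 other settings run. In the settings that keep 6 libraries it ranged from 1.81 to 2.67 for Krt6a, from 4.12 to 8.63 for Krt6b, from 3.45 to 5.08 for Krt16 and from 0.82 to 0.88 for Krt17. With each library left out in edgeR it ranged from 1.02 to 2.76 for Krt6a, from 3.15 to 10.15 for Krt6b, from 2.53 to 4.93 for Krt16 and from 0.68 to 1.02 for Krt17, and 0 of the 4 were called there. Krt16 was called by DESeq2 (4.21). DESeq2 with each library left out was added after seeing the data. It gave 2.52 to 4.93 for Krt16, called in 4 of 6 cases (2.52, 4.62 and 4.67 without cKO 1, 2 and 3, and 4.93 without control 1), 3.12 to 10.25 for Krt6b, called without control 1, and 0.68 to 1.01 for Krt17, called without cKO 2 (1.01) or control 2 (0.96). With the replicate number as a block in edgeR, Krt16 (3.77, adjusted p = 0.00841) and Krt6b (6.12, adjusted p = 0.00841) were called, but the labels do not say that equal numbers pair the libraries. Same-numbered libraries had correlations of deviations of 0.216, -0.0431 and -0.038, against -0.161 to 0.185 for the other combinations. With 3 libraries a group these values cannot decide whether the libraries are paired. The count of genes called was 3 in the main test, 91 in DESeq2, 25 with no filter beyond 1 count, 26 in limma-voom with quality weights, 12 with the block, and 0 in limma-voom (564 genes higher, 327 genes lower before adjustment at 0.05) and in limma-trend on log2(FPKM + 1) (509 and 310) and log2(FPKM + 0.1) (506 and 307). It was 0 to 4 in edgeR with each library left out (332 to 927 higher and 170 to 949 lower before adjustment), and 39, 151 and 45 in DESeq2 without cKO 1, 2 and 3, and 253, 127 and 47 without controls 1, 2 and 3. The cause of these differences was not tested. The ratios between members kept their direction, which the exact test at this size cannot call. Depth limits Krt6b most, with 1 and 4 reads in controls 2 and 3.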
